A study of Arabidopsis thaliana with 16 samples.

Results

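The enzymes of sulfate activation and reduction are encoded by 8 genes of Arabidopsis thaliana that were chosen by their locus codes: the ATP sulfurylase genes APS1 (AT3G22890), APS2 (AT1G19920), APS3 (AT4G14680) and APS4 (AT5G43780), the APS reductase genes APR1 (AT4G04610), APR2 (AT1G62180) and APR3 (AT4G21990), and the sulfite reductase gene SIR (AT5G04590). All 8 were found among the 32833 loci measured, and all 8 passed the filter on low values in both organs.

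Plants take up sulfur as sulfate, which is chemically inert until ATP sulfurylase couples it to ATP and forms adenosine phosphosulfate (APS). APS reductase, a plastid enzyme that draws electrons from glutathione, turns APS into sulfite, and sulfite reductase turns sulfite into sulfide, which is built into cysteine. APS reductase is regarded as the step that most often limits the flux. APS kinase competes for the same APS and makes PAPS, the sulfate donor for glucosinolates, which are sulfur-rich defence compounds of the cabbage family. When sulfate is scarce, the transcription factor SLIM1 raises the microRNA miR395, which acts on ATP sulfurylase transcripts and on that of the sulfate transporter SULTR2;1.

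In the TAIR10.1 build with RefSeq annotation, APS1 lies at chr3:8112614-8115024 on the plus strand (5 exons), APS2 at chr1:6914518-6916823 on the minus strand (5 exons), APS3 at chr4:8413263-8415650 on the minus strand (4 exons) and APS4 at chr5:17589394-17591737 on the minus strand (5 exons). APR1 lies at chr4:2324878-2327064 on the plus strand (3 exons), APR2 at chr1:22975530-22977885 on the minus strand (4 exons), APR3 at chr4:11657008-11659167 on the minus strand (4 exons) and SIR at chr5:1319074-1323364 on the plus strand (8 exons). These positions come from a match of locus codes to that build, and no source used here names the build behind the deposited values.

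Messenger RNA was sequenced from roots and shoots of wild-type seedlings 10 days old. Every seedling had spent 4 days at 22 °C on half-strength MS medium. The last 6 days followed 1 of 3 regimes, namely a gradient with the shoot at 32 °C and the root zone cooling with depth, 32 °C for the whole plant, or 22 °C for the whole plant. The gradient and 32 °C regimes thus gave the shoot the same air temperature and differed in the root zone. Gradient roots had 3 columns of values, 32 °C roots 3 and 22 °C roots 2, and gradient shoots had 3, 32 °C shoots 3 and 22 °C shoots 2.

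The values are the authors' normalised counts, whole numbers whose totals per column lay between 33075029 and 34769425, and the depth in reads is unknown. Replicates 2 and 3 of the gradient shoots held the same value at every one of the 32833 loci, as did replicates 1 and 2 of the 22 °C roots, whereas other pairs within a group matched at 6644 to 9019 loci. Each such identical pair was counted as 1 sample. This left 14 distinct libraries: 3 gradient roots, 3 roots at 32 °C and 1 root library at 22 °C, with 2 gradient shoots, 3 shoots at 32 °C and 2 at 22 °C. With 1 distinct library at 22 °C, roots of that regime were given the spread seen in the warm roots. No label tells whether replicates were grown apart, and a p-value here covers only the spread among these samples, which may be technical. Values were tested as log2(value + 1) with limma over all genes of an organ, and a gene was called when its Benjamini-Hochberg adjusted p lay below 0.05. TMM scaling, which recentres libraries on the bulk of the genes, gave a median log2 change over all genes of 0.04 in place of 0.49 in both shoot comparisons with 22 °C, and of -0.01 in place of 0.29 in 32 °C against 22 °C roots, so TMM values are given beside the deposited ones. The 8 markers of green tissue summed to between 1401 and 5812 in root libraries and to between 824397 and 1379738 in shoot libraries, and no marker of either organ was at 0 in any library.

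In shoots, 7 of the 8 genes rose in the gradient and 7 of 8 rose at 32 °C, each against 22 °C, and the exception in both was APS4, which fell. The 3 APS reductase genes rose most. At 32 °C APR1 was 9.59-fold, APR3 7.15-fold and APR2 4.26-fold higher than at 22 °C, while the ATP sulfurylase genes that rose and SIR were between 1.80-fold and 2.28-fold higher. The gradient gave 4.81-fold for APR1, 4.86-fold for APR3 and 3.29-fold for APR2. Folds here and below are of value + 1. Both comparisons share the 22 °C shoots. In bulk tissue, fewer cells of a type and less RNA per cell cannot be told apart.

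These counts stand against wide changes in shoots. Of the 21877 genes tested, 52.6% were called higher and 11.2% lower in the gradient, and 55.5% higher and 13.0% lower at 32 °C. After TMM scaling the shares were 28.9% higher and 27.4% lower in the gradient, and 32.4% higher and 30.3% lower at 32 °C. Under TMM all 8 calls were kept at 32 °C, and in the gradient 5 genes were still called higher and APS4 lower, with APS1 and SIR at adjusted p = 0.0709 and adjusted p = 0.0606 by limma. The median change of the 8 genes was 0.81 in the gradient and 1.12 at 32 °C on the log2 scale, or 0.36 and 0.67 after TMM scaling. Where libraries of a gene are said below not to overlap, the share of all genes that separate likewise was not counted.

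The ATP sulfurylases catalyse the entry step. APS1, the most abundant isoform of shoots per coding length, had normalised counts of 13481 and 16413 in gradient shoots and of 16112, 18724 and 19610 in 32 °C shoots, against 8980 and 8434 in 22 °C shoots. APS2, the isoform known to be made in plastid and cytosolic forms, had 2622 and 2513 in gradient shoots and 2660, 2725 and 2655 in 32 °C shoots, against 1557 and 1426 in 22 °C shoots. APS3 stood at 830 and 939 in gradient shoots and at 1043, 1206 and 1147 in 32 °C shoots, against 446 and 549 in 22 °C shoots. For these 3 genes every warm library lay above both 22 °C libraries. APS4 went the other way, with 1615 and 1526 in gradient shoots and 1700, 1668 and 1644 in 32 °C shoots, against 2212 and 2255 in 22 °C shoots, and its groups did not overlap either. The log2 change of APS4 was -0.51 ± 0.07 (SE) in the gradient and -0.42 ± 0.07 at 32 °C, and -0.96 and -0.87 after TMM scaling.

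APS1, APS3 and APS4 each carry 1 site for miR395, and APS2 has none, which is why the sites are shown. RefSeq lists 6 MIR395 genes in the TAIR10.1 build, and their mature products share 1 seed (bases 2 to 8, in capitals) and come in 2 forms. MIR395a, MIR395d and MIR395e give the first form, and MIR395b, MIR395c and MIR395f the second.
MIR395a form: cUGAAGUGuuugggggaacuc
MIR395b form: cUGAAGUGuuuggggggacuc
The sites lie in coding exons on the strand of the gene, and capitals mark bases that pair by Watson-Crick rules with the MIR395a form.
APS1, chr3:8113164-8113184, plus strand: GAGTTCCtCCAAACtCTTCAt
APS3, chr4:8414958-8414978, minus strand: GAGTTCCtCCAAACtCTTCAt
APS4, chr5:17591121-17591141, minus strand: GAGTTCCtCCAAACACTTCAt
SULTR2;1, chr5:3193268-3193288, plus strand: aAGTTCtCCCAAACACTTCAa
The sites of APS1 and APS3 are the same 21 bases with 3 mismatches, that of APS4 has 2 mismatches, and that of SULTR2;1, the low-affinity transporter of vascular tissue, has 3. Only 8 of 27440 genes (0.029%) have a site with at most 3 mismatches to this form. APS2, the 3 APS reductases and SIR have no site with 5 or fewer mismatches to either form. APS1 and APS3, with identical sites, rose in warm shoots, APS4 with its closer match fell, and APS2 without a site rose. Libraries of polyadenylated RNA do not measure mature microRNAs, and the 6 MIR395 loci were listed at 0 to 2 in all libraries, so the level of miR395 is not known here.

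APS reductase makes sulfite, and its 3 genes moved together in shoots. APR1 had 1746 and 2319 in gradient shoots and 3731, 4089 and 4246 in 32 °C shoots, against 467 and 374 in 22 °C shoots. APR2, known as the main isoform for APS reductase activity in leaves, had 1553 and 1715 in gradient shoots and 1935, 2271 and 2157 in 32 °C shoots, against 511 and 481 in 22 °C shoots. APR3 had 3132 and 3608 in gradient shoots and 5118, 4752 and 4979 in 32 °C shoots, against 724 and 660 in 22 °C shoots. For all 3 genes the gradient values lay between those at 22 °C and those at 32 °C. Log2 changes in the gradient were 2.26 ± 0.16 for APR1, 1.72 ± 0.10 for APR2 and 2.28 ± 0.09 for APR3 (SE, limma adjusted p of 1.93e-05, 1.11e-05 and 2.91e-06). At 32 °C they were 3.26 ± 0.14, 2.09 ± 0.09 and 2.84 ± 0.09 in the same gene order (adjusted p of 2.11e-06, 2.32e-06 and 6.51e-07), and 2.81, 1.64 and 2.38 after TMM scaling.

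SIR encodes the single sulfite reductase of Arabidopsis, which makes sulfide with electrons from ferredoxin. It had 11231 and 12530 in gradient shoots and 13134, 14518 and 13742 in 32 °C shoots, against 7016 and 7648 in 22 °C shoots. No warm library reached down to the 22 °C libraries. The log2 change was 0.70 ± 0.09 in the gradient and 0.91 ± 0.08 at 32 °C (SE, limma adjusted p of 0.000345 and 4.23e-05), and 0.24 and 0.46 after TMM scaling.

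**Figure D1:**
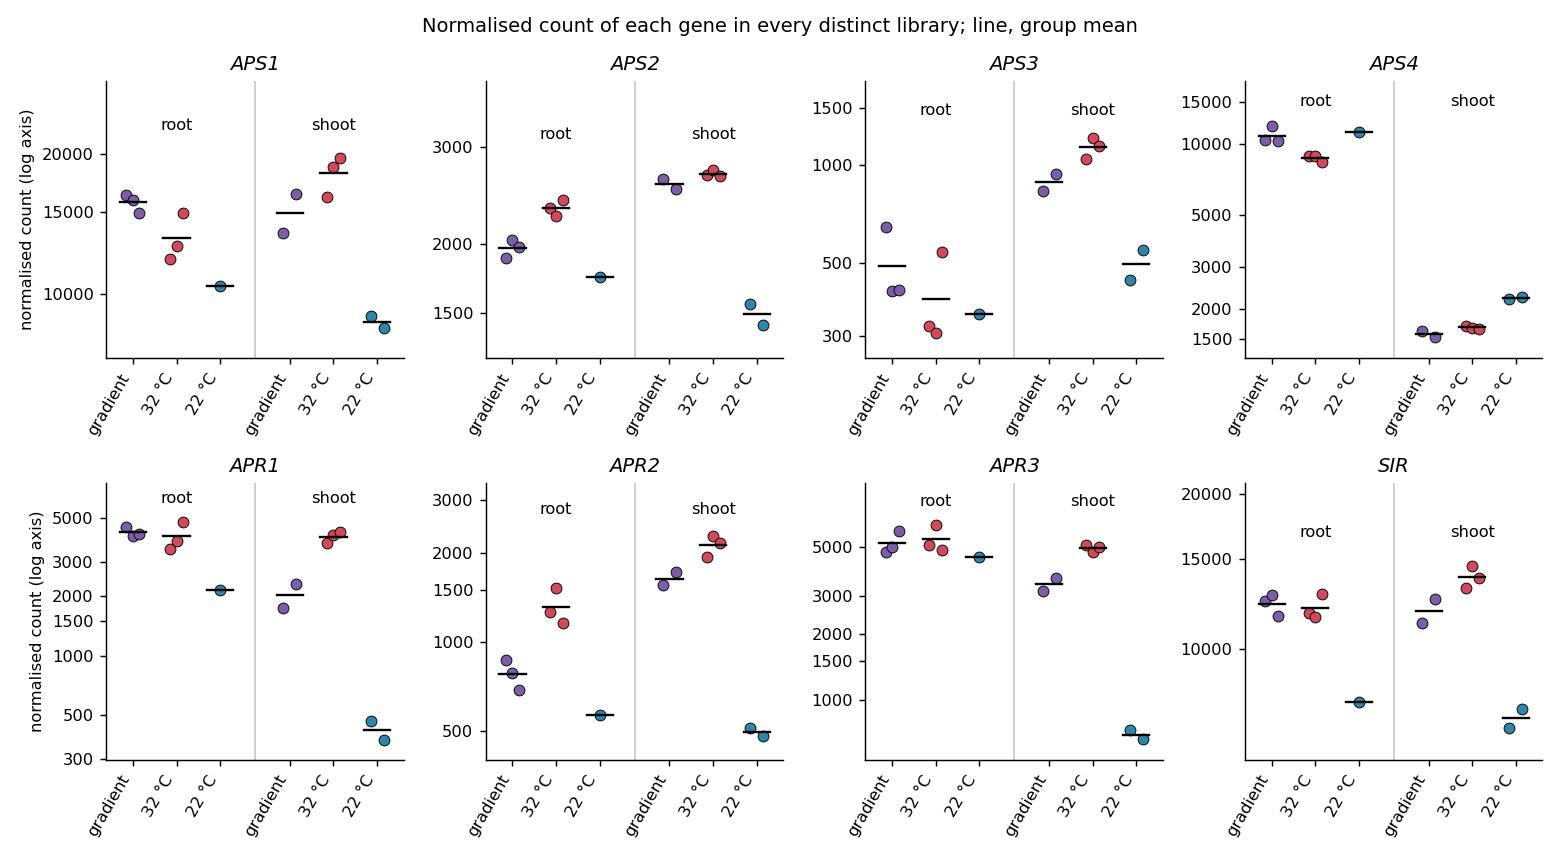
Normalised count (log axis) of each of the 8 genes in every distinct library, with roots left and shoots right of the grey line and the regimes in the order gradient, 32 °C, 22 °C; points are libraries and lines group means. In shoots the 22 °C points of APR1 (374 and 467) lie far below all warm points, while in roots the single 22 °C point (2157) is closer to the warm ones.

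Marker genes of the other organ moved with these changes. The 8 root markers summed to 282082 and 223009 in gradient shoots and to 298954, 203125 and 316042 in 32 °C shoots, against 63026 and 56318 in 22 °C shoots. Their median log2 change was 0.61 in the gradient and 0.72 at 32 °C, or 0.16 and 0.27 after TMM scaling. In both warm regimes 4 of them were called higher in shoots, namely PYK10, EXPA7, PHT1;1 and CYP86A1, and CASP1, CASP4, TIP2;3 and NRT2.1 were not called. Of the 8 green tissue markers 7 were lower and RCA was higher in both warm regimes. Their part in the changes of the sulfate genes was not tested.

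Between the warm regimes few genes were called in shoots, where the gradient had only 2 distinct libraries. APR1 was the only 1 of the 8 genes called, and it was lower in gradient shoots than in 32 °C shoots, by -1.0 ± 0.14 on the log2 scale (SE, limma adjusted p = 0.0441), or 2.00-fold lower. Across all genes 0.123% were called higher and 0.265% lower, 85 genes in all, and without any 1 of the 5 libraries compared at most 22 genes were called. APR3 changed by -0.56 ± 0.09 and just missed the threshold (adjusted p = 0.0514), and APR2 by -0.37 ± 0.09 (adjusted p = 0.136). Libraries of the 2 regimes did not overlap for either gene. Nor did they for APS2, at a log2 change of only -0.06 (limma adjusted p = 0.723). The ATP sulfurylase genes and SIR had log2 changes between -0.36 and -0.06. APS1 overlapped between the regimes, with 16413 in 1 gradient library against 16112 in 1 library at 32 °C. The APR1 call was lost when any 1 of the 5 shoot libraries of the 2 regimes was left out, with log2 changes between -1.2 and -0.79 and adjusted p between 0.105 and 0.264. It was also lost without the filter on low values (adjusted p = 0.0763).

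In roots, 2 of the 8 genes rose in the gradient, APR1 and SIR, and 4 rose at 32 °C, APS2, APR1, APR2 and SIR, each against 22 °C, while none was called lower. Over all 21877 genes tested, 11.1% were called higher and 5.15% lower in the gradient, and 31.9% higher and 12.1% lower at 32 °C. With TMM scaling the shares were 8.04% higher and 7.49% lower in the gradient, and 19.1% higher and 20.4% lower at 32 °C. After TMM scaling APR1 was still called in the gradient and APR2 at 32 °C, APS4 was called lower at 32 °C, and the other calls were lost. The median change of the 8 genes was 0.45 in the gradient and 0.37 at 32 °C, against medians of 0.09 and 0.29 over all genes. Both comparisons rest on the 1 distinct 22 °C root library.

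Among the ATP sulfurylases, APS1 had 16273, 15923 and 14950 in gradient roots and 11909, 12659 and 14938 in 32 °C roots, against 10396 in 22 °C roots. All warm values were above the 22 °C value, but neither change was called (log2 0.60 ± 0.19 in the gradient, adjusted p = 0.0655, and 0.33 ± 0.19 at 32 °C, adjusted p = 0.18). Without the third gradient library, APS1 was called in the gradient (adjusted p = 0.0341). APS2 had 1883, 2030 and 1972 in gradient roots and 2325, 2246 and 2403 in 32 °C roots, against 1744 in 22 °C roots, and only its change at 32 °C was called (0.41 ± 0.13, adjusted p = 0.0319). That call was lost when any 1 of the 3 libraries at 32 °C was left out (adjusted p between 0.0572 and 0.0979), and when the second gradient library was (adjusted p = 0.0702). APS3 spread widely, with 645, 410 and 413 in gradient roots and 322, 305 and 540 in 32 °C roots, against 351 in 22 °C roots. Its log2 change at 32 °C was 0.10 with a 95% interval from -0.75 to 0.95, so neither direction could be told, and it was -0.20 after TMM scaling.

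APS4, whose transcript was abundant in roots, had 10381, 11856 and 10227 in gradient roots and 8833, 8841 and 8357 in 32 °C roots, against 11206 in 22 °C roots. The 3 libraries at 32 °C were the lowest of all root libraries. The log2 change at 32 °C was -0.37 ± 0.16 (SE, limma adjusted p = 0.0968) as deposited and -0.67 after TMM scaling, where it was called (adjusted p = 0.0178). In the gradient it was -0.05 ± 0.16.

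APR1 had 4493, 4030 and 4131 in gradient roots and 3494, 3839 and 4745 in 32 °C roots, against 2157 in 22 °C roots. Its log2 change was 0.97 ± 0.19 in the gradient and 0.89 ± 0.19 at 32 °C (SE, limma adjusted p of 0.0138 and 0.00687), and 0.87 and 0.59 after TMM scaling, where the adjusted p at 32 °C was 0.0522. APR2 had 867, 787 and 689 in gradient roots and 1258, 1520 and 1155 in 32 °C roots, against 567 in 22 °C roots. The change of APR2 was called at 32 °C (1.20 ± 0.20, adjusted p = 0.00245) and not called in the gradient (0.45 ± 0.20, adjusted p = 0.149). APR3, the most abundant APS reductase transcript of roots per coding length, had 4762, 4981 and 5915 in gradient roots and 5131, 6286 and 4837 in 32 °C roots, against 4487 in 22 °C roots. Its changes of 0.21 ± 0.20 and 0.26 ± 0.20 were not called, and the second was -0.04 after TMM scaling.

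SIR had 12406, 12748 and 11585 in gradient roots and 11753, 11537 and 12807 in 32 °C roots, against 7875 in 22 °C roots. The 2 warm regimes overlapped fully, and both lay above the 22 °C library. The log2 change was 0.64 ± 0.16 in the gradient and 0.61 ± 0.16 at 32 °C (SE, limma adjusted p of 0.0349 and 0.0174), and 0.54 and 0.31 after TMM scaling, where neither was called. The call in the gradient was lost without the first or second library at 32 °C or the second gradient library (adjusted p between 0.0505 and 0.123), and the call at 32 °C without the first library at 32 °C (adjusted p = 0.0582).

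The cooler root zone was tested directly by setting gradient roots against 32 °C roots. APR2 was the 1 gene of the 8 that was called, lower by -0.74 ± 0.14 (SE, limma adjusted p = 0.00511) and by -0.54 after TMM scaling (adjusted p = 0.0191). Of all genes 12.6% were called higher and 30.0% lower, and after TMM scaling 19.4% higher and 16.9% lower. TMM scaling added APS1 and APS4 as higher, at log2 changes of 0.46 and 0.52 (0.26 and 0.32 as deposited). APS2 at -0.24 (adjusted p = 0.0602), APS3 at 0.35, APR1 at 0.08, APR3 at -0.05 and SIR at 0.03 were not called. The third gradient root library had the highest sum of green tissue markers among roots, 5812 against 1401 and 3194 in the other two. Without it APR2 was still called and APS2 was called lower and APS4 higher (adjusted p of 0.0465 and 0.0298).

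Root markers moved between the root regimes as well. They summed to 838918, 811553 and 632701 in gradient roots and to 519309, 455658 and 593324 in 32 °C roots, against 398694 in the 22 °C root library. Their median log2 change against 22 °C was 0.52 in the gradient and -1.52 at 32 °C. At 32 °C the sum thus rose while the median fell. At 32 °C against 22 °C the endodermis genes CASP1, CASP4 and CYP86A1 and the aquaporin gene TIP2;3 were lower and PHT1;1 was higher, and in the gradient PHT1;1 alone was called. In gradient against 32 °C roots 5 of the 8 were higher, namely TIP2;3, CASP1, CASP4, EXPA7 and CYP86A1. Their part in the changes of the sulfate genes was not tested.

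**Figure D2:**
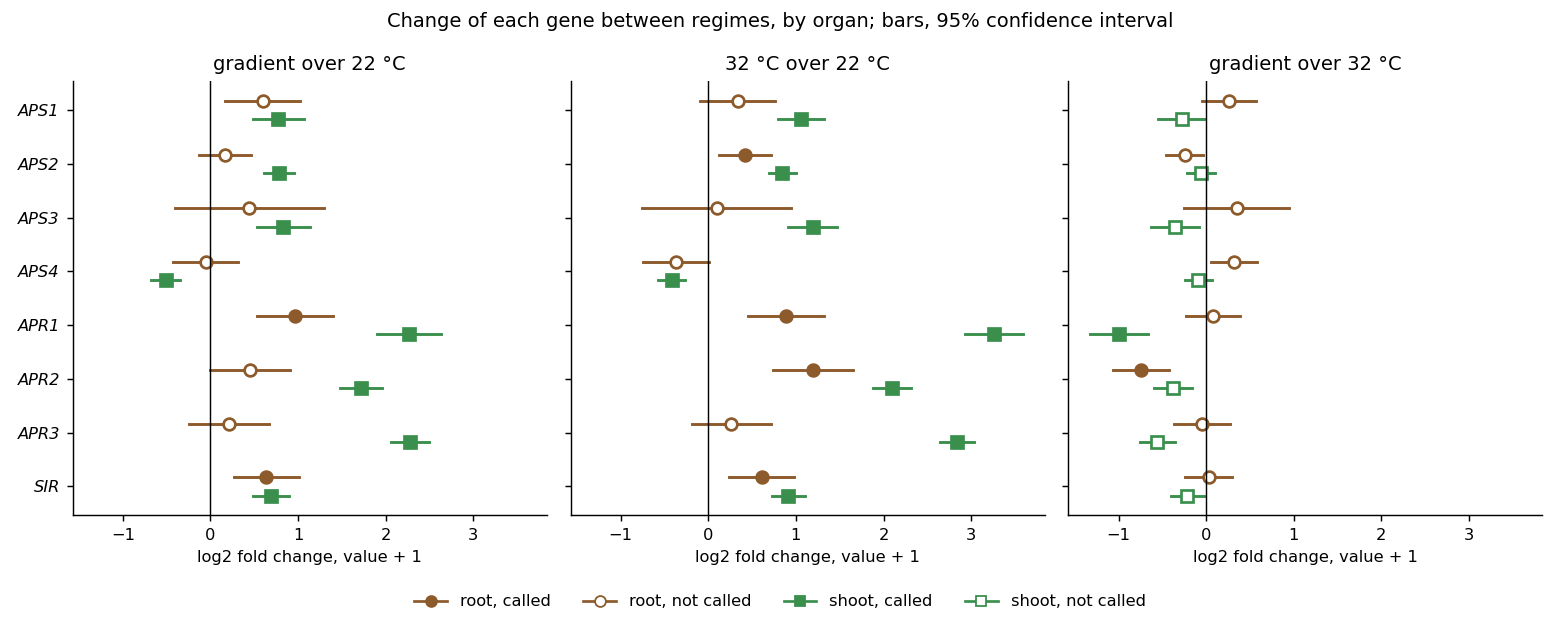
Log2 fold change of value + 1 for each gene in the gradient over 22 °C, at 32 °C over 22 °C and in the gradient over 32 °C, with roots as circles, shoots as squares, 95% confidence intervals as bars and filled symbols for called changes. APR1 and APR3 differ most between organs, at 3.26 and 2.84 in 32 °C shoots and at 0.89 and 0.26 in 32 °C roots.

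The change in roots was smaller than the change in shoots for all 3 APS reductase genes, both in the gradient and at 32 °C. The difference was tested as root change minus shoot change. At 32 °C against 22 °C it was lower for 5 of the 8 genes, with -2.57 ± 0.21 for APR3, -2.37 ± 0.25 for APR1, -0.89 ± 0.21 for APR2, -0.72 ± 0.22 for APS1 and -0.43 ± 0.13 for APS2 (SE, limma adjusted p between 1.24e-05 and 0.0302). APS1 and APS2 were not called after TMM scaling. In the gradient against 22 °C it was lower for APR3 (-2.07 ± 0.22), APR1 (-1.30 ± 0.26), APR2 (-1.26 ± 0.22) and APS2 (-0.62 ± 0.13), and higher for APS4 (0.45 ± 0.15), with adjusted p between 8.78e-05 and 0.0385. APS2 was not called there after TMM scaling. In the gradient against 32 °C it was higher for APR1 (1.07 ± 0.20), APS1 (0.54 ± 0.18), APR3 (0.51 ± 0.17) and APS4 (0.41 ± 0.12), with adjusted p between 0.00373 and 0.0471, and SIR was added after TMM scaling. Of 23070 genes tested in the joint fit of the organs, 7.46% were called higher and 19.7% lower at 32 °C against 22 °C. In the gradient against 22 °C 3.53% were higher and 22.7% lower, or 7.57% and 11.6% after TMM scaling. In the gradient against 32 °C 8.02% were higher and 19.1% lower, or 15.0% and 8.81% after TMM scaling. Where the replicate number was a block shared by the organs, APS1 and APR3 were no longer called in the gradient against 32 °C (adjusted p of 0.0674 and 0.0731) and APS4 and APR1 were. The difference of APR1 in the gradient against 32 °C was called without any 1 library. The 6 differences of APR1, APR2 and APR3 against 22 °C were called without any 1 library that could be left out. The only distinct 22 °C root library, on which these 6 rest, could not be left out. Of these 6, APR2 at 32 °C lost its call under a replicate block within each organ, with identical columns under their higher number (limma adjusted p = 0.0549). The other calls, except APS2 in the gradient against 22 °C, were each lost without 1 library or more. In the gradient against 32 °C the call of APR3 was lost without any of 11 libraries (adjusted p between 0.0577 and 0.182) and that of APS1 without any of 10 (between 0.0532 and 0.2). The call of APS4 there was lost without the second gradient root, the first 32 °C shoot or either gradient shoot library (between 0.0546 and 0.112). APS4 in the gradient against 22 °C was lost without any of 8 libraries (between 0.0546 and 0.118). At 32 °C against 22 °C APS1 was lost without replicate 1 or 2 of the 32 °C roots, replicate 2 or 3 of the 32 °C shoots, or either 22 °C shoot library (between 0.0514 and 0.0893), and APS2 without the first 32 °C root or the second 22 °C shoot library (0.0539 and 0.0945).

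The changes shifted how the organs compared. At 22 °C roots exceeded shoots for APS4 (2.33 ± 0.12, 5.02-fold), APR1 (2.36 ± 0.20, 5.15-fold) and APR3 (2.70 ± 0.17, 6.48-fold), and the other 5 genes were not called, at log2 differences between -0.49 and 0.26. After TMM scaling APS3 was lower in roots at 22 °C as well (-0.95, adjusted p = 0.0282), and the differences of APS1, APS2, APR2 and SIR turned negative without being called. At 32 °C only APS4 was still higher in roots (2.38 ± 0.08), APR1 and APR3 differed from shoots by -0.01 ± 0.14 and 0.12 ± 0.12, and APS1 (-0.46), APS2 (-0.21), APS3 (-1.59) and APR2 (-0.70) were lower in roots. In the gradient APS4 (2.78 ± 0.09), APR1 (1.07 ± 0.15) and APR3 (0.63 ± 0.13) were higher in roots and APS2 (-0.39), APS3 (-0.88) and APR2 (-1.07) lower. Every adjusted p of these calls lay between 7.55e-11 and 0.0192 (SE and limma throughout). Over all 23070 genes, 46.7% were called higher and 21.0% lower in roots at 22 °C, 51.2% and 23.4% at 32 °C, and 39.3% and 33.4% in the gradient. With TMM scaling these were 32.5% and 31.6% at 22 °C, and 30.2% and 32.5% at 32 °C. At 32 °C TMM scaling lowered the root side so that APR1 (-0.39), APR3 (-0.26, adjusted p = 0.0485) and SIR (-0.58) were called lower in roots as well, and APR3 thus changed sign. The APS2 call at 32 °C was lost without the first or second root library or the second shoot library of that regime (adjusted p between 0.0522 and 0.0663), and SIR was called lower without the third gradient root library (adjusted p = 0.0419), as APS2 was called higher at 22 °C (adjusted p = 0.0493).

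Levels of different genes were compared as normalised count per kilobase of coding sequence. APS1 was the highest of the 8 in every group except 22 °C roots, with means of 11290 ± 492 in gradient roots, 9460 ± 1133 in 32 °C roots, 10738 ± 1489 in gradient shoots, 13038 ± 1306 in 32 °C shoots and 6255 ± 277 in 22 °C shoots (SD). In the 22 °C root library APS4 stood first at 7948 and APS1 second at 7468. APS3 was last in every root group and in both warm shoot groups, and APR1 was last in 22 °C shoots at 301 ± 47.0. There APR1 was within the spread of APS3 (325 ± 47.5), the next in the order. APR1 was the fourth of 8 in 32 °C shoots, at 2877 ± 189, and the fifth in gradient shoots, at 1454 ± 290, where its spread reached APS2 (1794 ± 53.9) and APR2 (1197 ± 83.9). SIR and APS4 could not be ordered in 32 °C roots (6238 ± 352 and 6154 ± 197).

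The mix of ATP sulfurylase transcripts differed between organs and moved with the regimes. Of the summed level per coding length, APS4 made up 37.1% ± 1.83 in gradient roots, 35.3% ± 3.16 in 32 °C roots and 47.1% in the 22 °C root library, and 7.89% ± 1.11 in gradient shoots, 7.08% ± 0.704 in 32 °C shoots and 17.2% ± 0.745 in 22 °C shoots (SD over distinct libraries). APS1 made up 54.7% ± 1.56 in gradient roots, 54.0% ± 3.12 in 32 °C roots and 44.3% in 22 °C roots, and 75.4% ± 2.84 in gradient shoots, 77.4% ± 1.69 in 32 °C shoots and 67.9% ± 0.998 in 22 °C shoots. In each organ APS4 thus had a smaller and APS1 a larger share in the warm regimes, with no overlap between warm and 22 °C libraries. APS2 made up between 6.33% and 13.9% in single libraries and APS3 between 1.16% and 4.54%.

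Among APS reductases APR3 held the largest share in every library, between 42.6% and 62.5%. APR2 made up 7.78% ± 1.14 in gradient roots, 12.3% ± 1.25 in 32 °C roots and 7.96% in the 22 °C root library, and 23.6% ± 1.21 in gradient shoots, 19.4% ± 1.27 in 32 °C shoots and 31.2% ± 1.22 in 22 °C shoots. Its share was thus larger in shoots than in roots in all libraries, and within shoots it was largest at 22 °C, where total APS reductase was lowest. APR1 made up 28.4% ± 2.24 in gradient shoots and 35.8% ± 1.43 in 32 °C shoots, against 25.7% ± 1.93 in 22 °C shoots. Shares use the same libraries as the tests above and are given as a description.

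**Figure D3:**
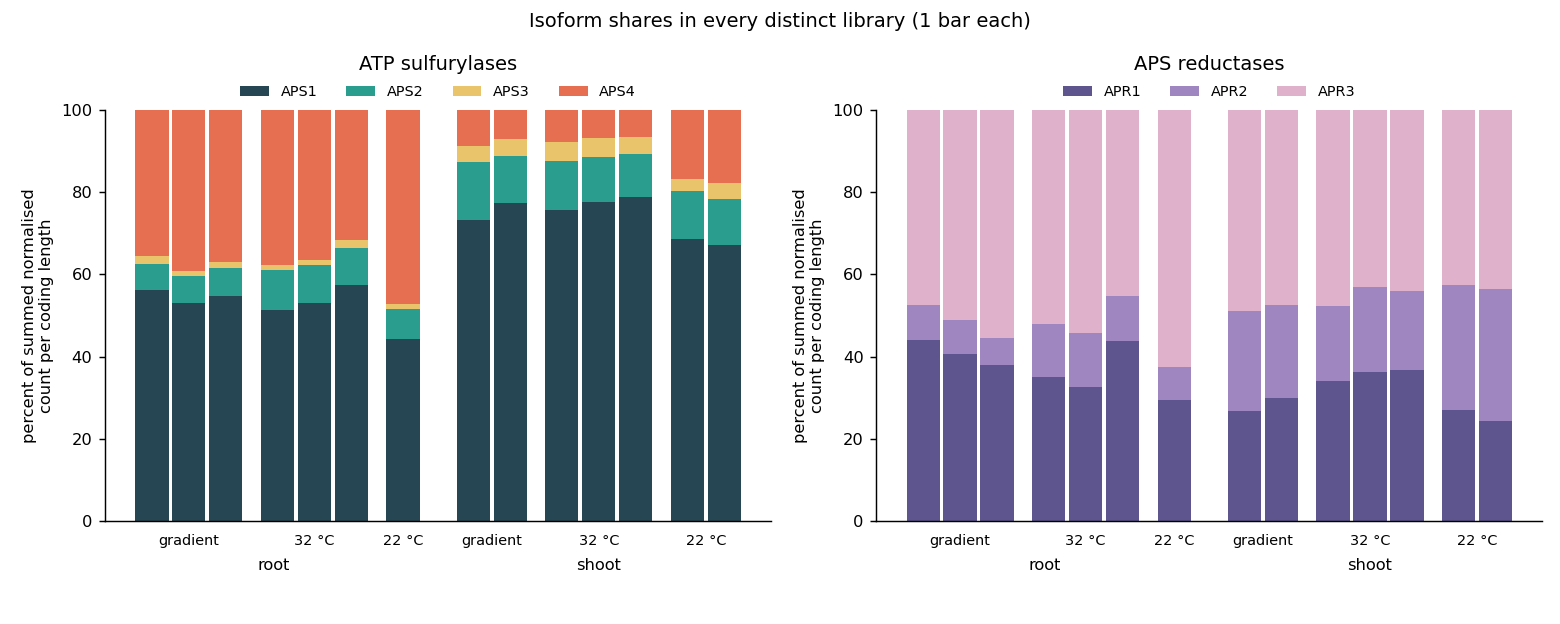
Percent of the summed normalised count per coding length that each ATP sulfurylase (left) and APS reductase (right) isoform made up, with 1 bar per distinct library and regimes in the order gradient, 32 °C, 22 °C within each organ. APS4 takes 31.7% to 47.1% of the bar in roots and 6.53% to 17.7% in shoots.

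The isoforms are close relatives, so reads could be shared between them. The encoded APS1 and APS3 proteins are 82.6% identical, APR1 and APR3 84.7%, APR2 and APR3 80.8%, and APR1 and APR2 77.9%, by alignment of RefSeq proteins. At the transcript level, however, APS1 and APS3 share only 1 stretch of 50 bases, and no stretch of that length joins the APS reductases to one another. APR2 shares 8.8% of its 50-base stretches with the neighbouring gene AT1G62170, whose own values lay between 0 and 5. APS2 shares 1.5% with AVA-P2, a vacuolar proton pump subunit with values between 3896 and 12128, and APS4 1.348% with AT5G43770, with values between 0 and 36. No source used here says whether the counting used strand.

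APS kinase uses the same substrate as APS reductase, so the summed levels of both families were set side by side. APS reductases summed to 7380 ± 345 in gradient roots, 7775 ± 639 in 32 °C roots and 5217 in the 22 °C root library, and to 5098 ± 618 in gradient shoots, 8025 ± 215 in 32 °C shoots and 1167 ± 95.4 in 22 °C shoots (normalised count per coding kilobase, SD). The 4 APS kinase genes summed to 15336 ± 917 in gradient roots, 9994 ± 1493 in 32 °C roots and 7175 in 22 °C roots, and to 7474 ± 210 in gradient shoots, 8952 ± 443 in 32 °C shoots and 2129 ± 59.6 in 22 °C shoots. Gradient roots had the most APS kinase of all groups. For APS reductase, 32 °C roots (7147 to 8425) and 32 °C shoots (7803 to 8233) overlapped and could not be ordered. The ratio of reductases to kinases was 0.482 ± 0.0279 in gradient roots, 0.788 ± 0.118 in 32 °C roots and 0.727 in 22 °C roots. In shoots it was 0.681 ± 0.0636 in the gradient, 0.897 ± 0.0335 at 32 °C and 0.547 ± 0.0295 at 22 °C. The 3 gradient root libraries, from 0.450 to 0.504, lay below every other library, and the 3 shoot libraries at 32 °C, from 0.859 to 0.920, did not overlap with other shoots. Without division by coding length the ratios were 0.782, 1.28 and 1.19 in gradient, 32 °C and 22 °C roots and 1.12, 1.47 and 0.904 in gradient, 32 °C and 22 °C shoots, with the regimes in the same order.

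**Figure D4:**
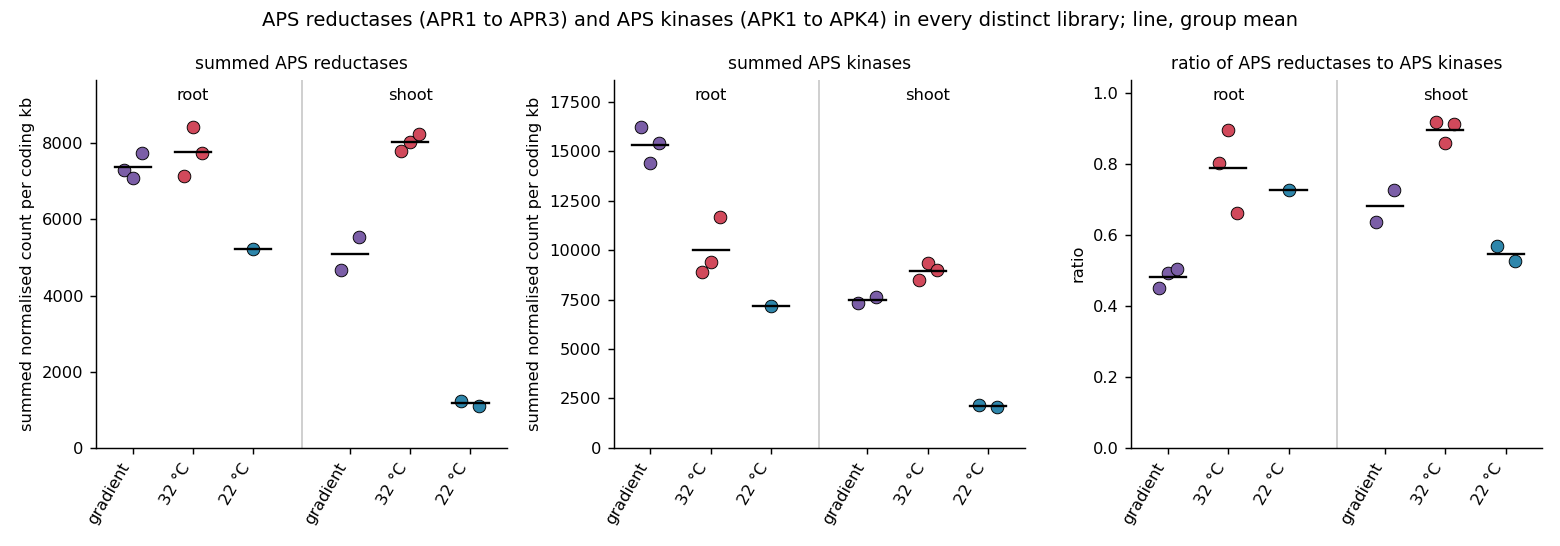
Summed normalised count per coding kilobase of APR1 to APR3 (left) and of APK1 to APK4 (middle), and their ratio (right), in every distinct library with group means as lines. Gradient roots have high APS kinase (14391 to 16222) and the lowest ratios (0.450 to 0.504).

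The genes around the pathway were followed in lists, described by counts and medians. Shares of all genes called higher and lower against 22 °C stand beside them. In shoots these were 52.6% and 11.2% in the gradient and 55.5% and 13.0% at 32 °C. After TMM scaling they were 28.9% and 27.4%, and 32.4% and 30.3%. In roots they were 11.1% and 5.15% in the gradient and 31.9% and 12.1% at 32 °C. Gradient against 32 °C roots had 12.6% higher and 30.0% lower. Of the PAPS branch, which holds APS kinases, the phosphatase SAL1, the transporter PAPST1 and the desulfoglucosinolate sulfotransferases SOT16 to SOT18, 9 of 9 were higher in gradient shoots and 8 of 9 in 32 °C shoots against 22 °C, with medians of 1.39 and 1.69, and 7 and 8 were higher after TMM scaling. APK1 rose by 1.79 ± 0.07 in gradient shoots and 2.08 ± 0.07 in 32 °C shoots, APK2 by 2.00 ± 0.10 and 2.28 ± 0.09, and SOT17 by 2.18 ± 0.16 and 2.62 ± 0.15, while APK4 at 32 °C (0.30 ± 0.20) was not called. In roots 4 of 9 were higher in the gradient and 5 of 9 at 32 °C. APK1 and APK2 were higher in the gradient (0.82 and 1.37) but not called at 32 °C (0.14 and 0.60), and APK4 was higher at 32 °C (1.95 ± 0.28) but not called in the gradient (0.62 ± 0.28). Gradient roots set against 32 °C roots had higher APK1 (0.67 ± 0.12) and APK2 (0.78 ± 0.16) and lower APK4 (-1.32 ± 0.20), with limma adjusted p between 0.00245 and 0.00798. No gene of the list was called between gradient and 32 °C shoots.

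Sulfate transporters bring in and move the substrate. In shoots 10 of 12 were higher in the gradient and 10 of 12 at 32 °C against 22 °C, with medians of 1.43 and 1.37, and after TMM scaling 8 were higher and 1 lower in each. The vacuolar exporters SULTR4;1 and SULTR4;2 rose by 1.25 ± 0.08 and 2.46 ± 0.13 in gradient shoots and by 1.58 ± 0.07 and 2.90 ± 0.12 in 32 °C shoots. SULTR3;3 was not called in either, and it was the 1 that was lower after TMM scaling. In roots 3 of 12 were higher in the gradient and 6 of 12 at 32 °C, each against 22 °C. SULTR2;1, which carries a miR395 site, was higher by 1.80 ± 0.41 in gradient roots and 2.27 ± 0.41 in 32 °C roots. It was higher by 0.65 and 0.71 in gradient and 32 °C shoots, changes that were not called after TMM scaling. SULTR1;2, the main root uptake transporter, was higher at 32 °C in roots (0.87), and not called in gradient roots (0.81) or after TMM scaling at 32 °C. SULTR1;1, the high-affinity uptake transporter known to rise in sulfate-starved roots, had 455, 337 and 230 in gradient roots, against 41, 24 and 77 in 32 °C roots (log2 change 2.92 ± 0.42, limma adjusted p = 0.00199), and 122 in the 22 °C root library. It was the 1 transporter of 12 that was higher in gradient than in 32 °C roots, and 3 were lower, namely SULTR3;2 (-1.83 ± 0.26, adjusted p = 0.00194), SULTR1;3 (-2.25 ± 0.51, adjusted p = 0.0102) and SULTR4;2 (-0.41 ± 0.13, adjusted p = 0.0382), the last not after TMM scaling.

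Among the 6 lists, regulators and markers of sulfur deficiency had the highest median change in shoots against 22 °C. In shoots 12 of 13 were higher in the gradient and 12 of 13 at 32 °C against 22 °C, with medians of 1.70 and 2.33, and after TMM scaling 9 were higher and 1 lower in the gradient and 11 higher at 32 °C. HY5 was not called as deposited and was lower in gradient shoots after TMM scaling (-0.62). SDI1, a repressor of glucosinolate synthesis that marks sulfur deficiency, had 196 and 253 in gradient shoots and 1077, 1234 and 889 in 32 °C shoots, against 43 and 16 in 22 °C shoots. LSU1, another deficiency marker, had 225 and 319 in gradient shoots and 938, 973 and 943 in 32 °C shoots, against 57 and 35 in 22 °C shoots. For both genes the gradient values lay between those at 22 °C and those at 32 °C, as for the APS reductases. LSU1 (-1.82 ± 0.22), LSU2 (-1.26 ± 0.18) and the thioglucosidase BGLU28 (-1.75 ± 0.22) were lower in gradient than in 32 °C shoots (limma adjusted p between 0.0391 and 0.0441), and SDI1 (-2.24) was not called. SLIM1 changed by 0.42 in both warm shoot groups and by -0.04 and -0.03 after TMM scaling, so its direction depends on the scaling.

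In roots 4 of the 11 regulators and markers tested were higher in the gradient. At 32 °C 4 were higher and HY5 was lower, and MYB29 and MYB76 were too low to test. MYB28, an activator of aliphatic glucosinolate genes, rose by 1.66 ± 0.17 in gradient roots and 2.16 ± 0.17 in 32 °C roots. In gradient against 32 °C roots 3 of the 11 were higher and 3 lower. SDI1 was higher (1.08 ± 0.13, limma adjusted p = 0.00132), with 365, 384 and 365 in gradient roots against 191, 158 and 179 in 32 °C roots. LSU1 was higher there too, by 0.74. HY5, a light-signalling factor known to bind APS reductase promoters, had 1139, 1215 and 1581 in gradient roots and 499, 550 and 593 in 32 °C roots, against 1441 in the 22 °C root library, a log2 change of 1.25 ± 0.15 between the warm regimes. The 3 that were lower in gradient roots were BGLU28 (-2.24 ± 0.45), MYB51 (-1.13 ± 0.19), an activator of indole glucosinolate genes, and MYB28 (-0.50 ± 0.12), with limma adjusted p between 0.00371 and 0.0131, and MYB28 was not called after TMM scaling. SLIM1 was not called in any root comparison.

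Downstream of sulfide the counts in shoots lay near the shares over all genes. Those were 52.6% higher and 11.2% lower in the gradient, and 55.5% and 13.0% at 32 °C. Of 14 genes of cysteine and glutathione synthesis, 8 were higher and 2 lower in gradient shoots and 7 higher and 2 lower in 32 °C shoots, with medians of 0.32 and 0.47. After TMM scaling 3 were higher and 5 lower in the gradient and 4 higher and 5 lower at 32 °C, with medians of -0.13 and 0.02. SERAT3;2, a serine acetyltransferase, rose by 3.08 ± 0.33 in gradient shoots and 3.65 ± 0.30 in 32 °C shoots, and OASC, the mitochondrial cysteine synthase, by 0.76 and 1.03 (0.31, not called, and 0.57 after TMM scaling). In roots 1 was higher and 1 lower in the gradient, and 2 were higher and 4 lower at 32 °C. OASA1, the cytosolic cysteine synthase, was higher in gradient than in 32 °C roots by 1.04 ± 0.17 (limma adjusted p = 0.00291).

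UPM1 makes the precursor of the siroheme that sulfite reductase carries. Like SIR, it rose in shoots, by 1.61 ± 0.09 in the gradient and 1.81 ± 0.08 at 32 °C. In roots UPM1 rose by 0.81 ± 0.14 at 32 °C and was not called in the gradient, where SIR was. It was lower in gradient than in 32 °C roots (-0.31 ± 0.10, limma adjusted p = 0.041), but not after TMM scaling. SIRB, the last enzyme of siroheme synthesis, was not called in any comparison of regimes as deposited. After TMM scaling SIRB was lower in 32 °C roots (-0.66), 32 °C shoots (-0.54) and gradient shoots (-0.37), each against 22 °C. SQD1, which uses sulfite to make sulfolipid, rose by 2.62 ± 0.17 in gradient shoots and 2.99 ± 0.15 in 32 °C shoots. SOX, sulfite oxidase, was lower in gradient shoots (-0.31 ± 0.07) and not called in 32 °C shoots. With TMM scaling SOX was lower in gradient shoots (-0.76) and in 32 °C shoots (-0.58). The APR-like proteins, thioredoxin-like relatives of APS reductase that lack its reductase domain, did not rise. None of the 4 was higher in warm against 22 °C tissue, and APRL4 was lower in gradient shoots (-0.50 ± 0.10) and in 32 °C shoots (-0.60 ± 0.09). APRL6 was lower in 32 °C shoots (-0.32 ± 0.10) and in 32 °C roots (-0.84 ± 0.14), and higher in gradient than in 32 °C roots (0.80 ± 0.10). After TMM scaling all 4 were lower in both warm shoot groups.

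**Figure D5:**
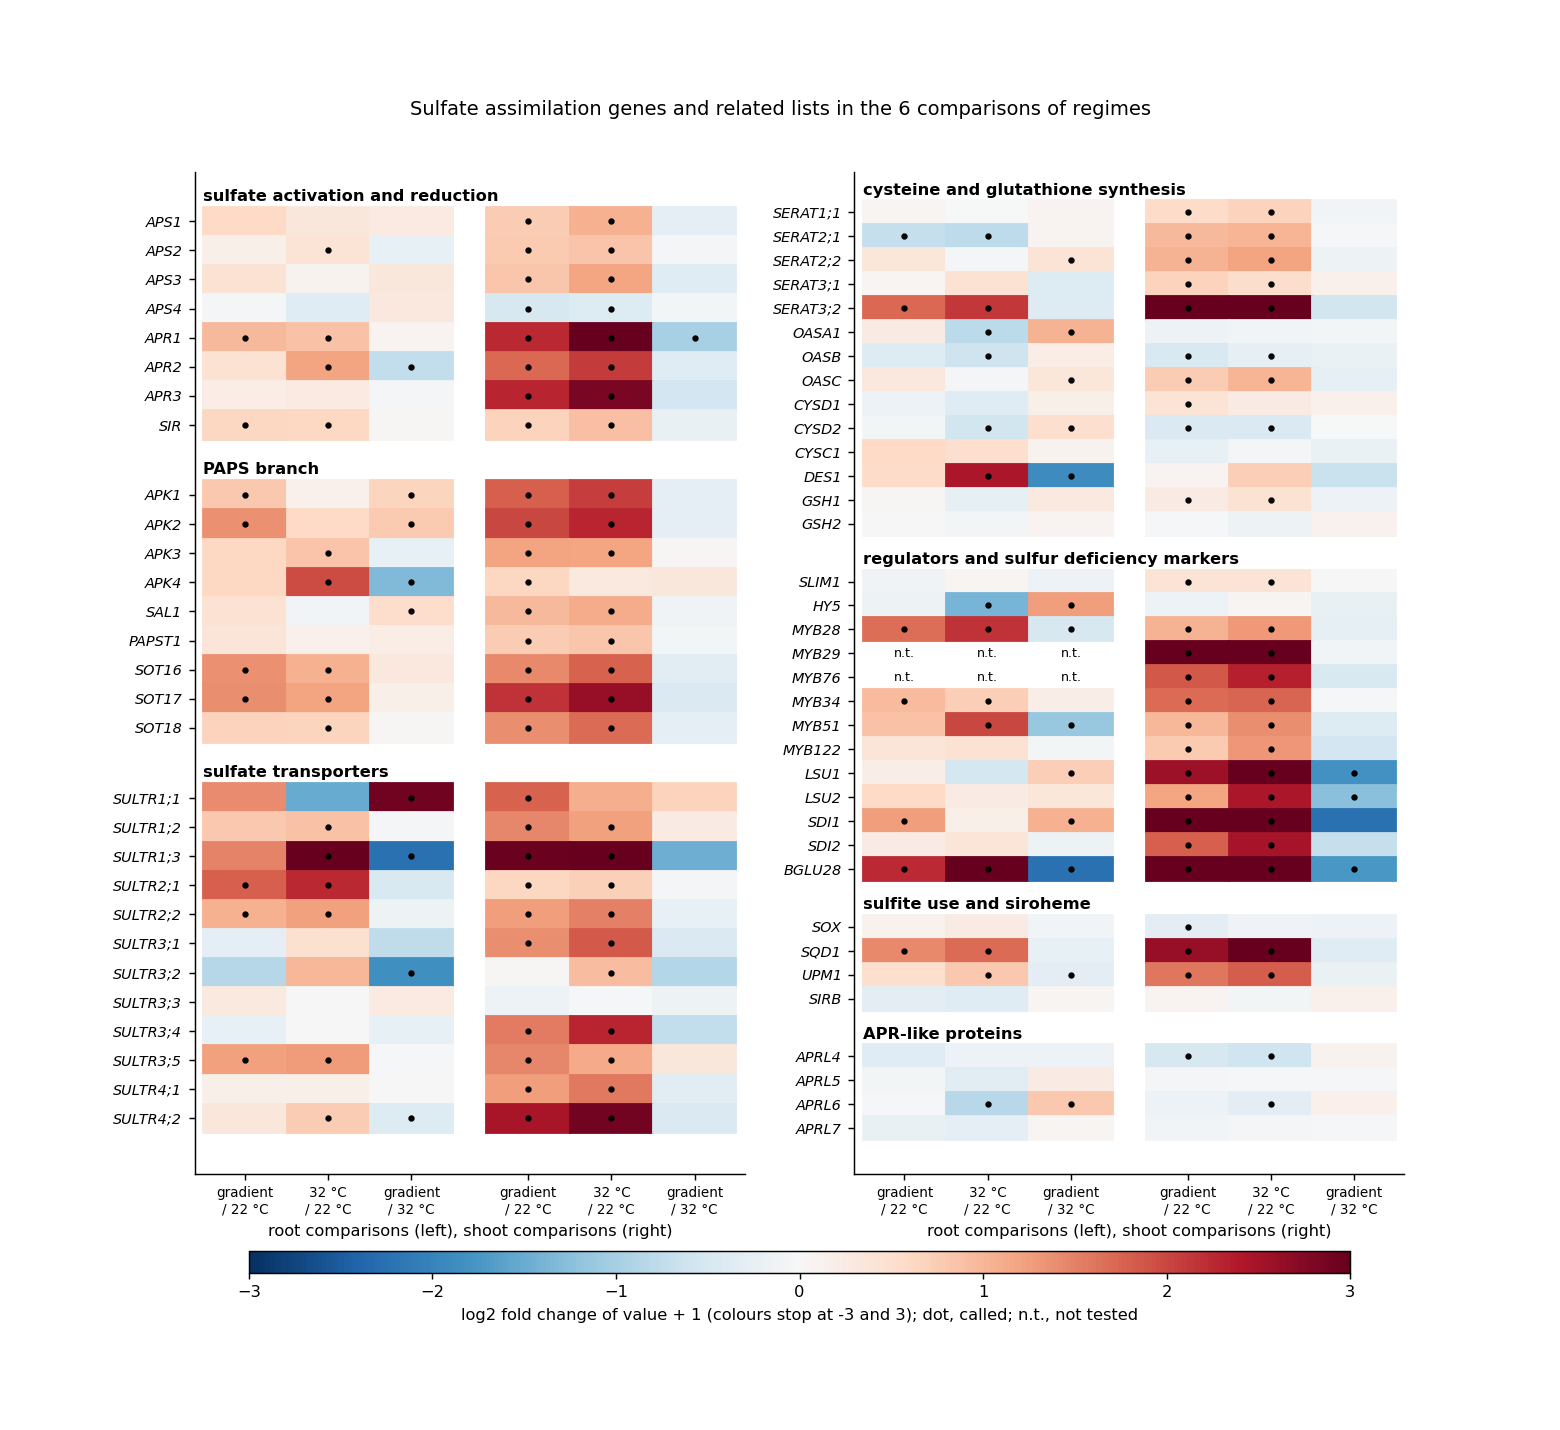
Log2 fold change of value + 1 (colour, limited to between -3 and 3) of the 8 genes and the 6 related lists in the gradient over 22 °C, at 32 °C over 22 °C and in the gradient over 32 °C, for roots and shoots, with dots on called changes. The shoot columns against 22 °C are called higher for 7 of 8 sulfate genes, and the APR-like proteins have none called higher there.

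The genes whose profile was most like the mean of APR1 to APR3 were ranked over the 14 distinct libraries, with each organ's mean removed, among 20721 genes. The 5 most alike were AT3G19000 (Pearson r = 0.990), CYP705A19, a cytochrome P450 (0.989), AT5G56840 (0.986), SULTR4;2 (0.986) and PMEAMT, a phosphoethanolamine methyltransferase (0.985). These values are a description, since libraries share regimes and organs, and 7.65% of genes had an r above 0.9. Of the 8 genes themselves, APR1 (0.985) and APR3 (0.983) ranked highest, and both are part of the mean they were set against, as is APR2 (0.953). APS2 reached 0.952, SIR 0.923, APS1 0.90 and APS3 0.775, and APS4 ran against the mean at -0.79.

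The 250 bases before the start of each gene were searched on both strands for GAGAC, the core of the sulfur-responsive element, for CACGTG and for GAANNTTC. GAGAC was in none of the 8 windows and in 25.75% of windows of 27443 genes, CACGTG in none and in 6.49%, and GAANNTTC in that of APS2 and in 9.55%. No promoter is shown, because these letters set no group of the 8 apart.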

How the data were processed

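The table covers 16 messenger RNA samples and 32833 loci. Its values are a score: the authors deposited whole numbers that they call normalised counts, by a normalisation that no source used here describes. Tools in the submitters' processing notes are DESeq2, HISAT2 and STAR 2.5.3a, without version for the others or the role of each. The genome build, the annotation and the use of strand are not stated. Locus codes were matched to RefSeq TAIR10.1, which named 32548 loci and all 8 genes. The 8 genes and the lists were chosen with earlier results of these data known.

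Genes with at least 10 in at least 2 columns were kept, identical columns were counted once, and log2(value + 1) was tested two-sided by limma 3.58.1 (R 4.3.3) with an intensity trend, leaving 4 residual degrees of freedom in each organ's fit and 8 across organs. The procedure was tested on simulated data. TMM factors were computed with 30% of log ratios and 5% of intensities trimmed from each end. Sequences were read with Biopython 1.88. Beside the 8 genes, the text names from each list up to 3 called genes of smallest and 2 uncalled genes of largest adjusted p in a comparison, with their values in the others, and 8 genes followed throughout. Alternatives were a pseudocount of 0.5 or 8, no filter, TMM scaling, a replicate block, the compared groups alone, identical columns kept apart and each library left out.

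Same-numbered roots and shoots at 32 °C deviated together from their group means (correlations of 0.16, 0.24 and 0.26). In the gradient the correlations were 0.08 and 0.03, and a differently numbered pair of gradient and 32 °C roots reached 0.22. In the block shared by the organs the numbers were taken to pair them, from the data and not from the labels. The main organ tests took roots and shoots as independent.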

Additional observations from a re-analysis of the deposited data

Results flagged for a closer look

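Changes that differed between root and shoot by a test of the difference itself (root change minus shoot change, log2, limma adjusted p below 0.05) drew attention. At 32 °C against 22 °C they were -2.37 for APR1, -0.89 for APR2, -2.57 for APR3, -0.72 for APS1 and -0.43 for APS2. In the gradient against 22 °C they were -1.30 for APR1, -1.26 for APR2, -2.07 for APR3, -0.62 for APS2 and 0.45 for APS4. In the gradient against 32 °C they were 1.07 for APR1, 0.51 for APR3, 0.54 for APS1 and 0.41 for APS4. All comparisons with 22 °C roots rest on 1 distinct library. Root markers, given in the report as sums and medians, moved between regimes in both organs, and their part was not tested. In roots at 32 °C against 22 °C their sum rose while their median fell. Groups of at most 3 distinct libraries allowed no check for single outlying samples.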

How the results depend on the processing

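All 8 sulfate genes stayed called in shoots at 32 °C against 22 °C under each setting run, and in the gradient against 22 °C under each except TMM scaling. Of 816 member changes recomputed under other settings 746 stayed on their side of the threshold with any called sign kept, 47 lost the call, 22 gained one, and 1 was called with the other sign (APR3, root against shoot at 32 °C, -0.26 after TMM scaling against 0.12). Signs differed in 19 of the 816, 13 of them under TMM scaling, and the other 18 were changes called in neither fit. The cause was not tested.

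Counts of called sulfate genes moved as follows. TMM scaling gave 2 in place of 4 (roots, 32 °C against 22 °C), 1 in place of 2 (roots, gradient against 22 °C), 3 in place of 1 (roots, gradient against 32 °C), 8 in place of 5 (root against shoot at 32 °C) and 3 in place of 5 (organ difference, 32 °C against 22 °C). Without the filter the counts were 2 in place of 1 for gradient against 32 °C roots, 0 in place of 1 for the same comparison of shoots and 2 in place of 4 for its organ difference, and a pseudocount of 8 gave 2 in place of 1 in gradient against 32 °C shoots. Identical columns taken as separate replicates gave 4 in place of 2 in gradient against 22 °C roots, and 3 in place of 1 in gradient against 32 °C for roots and for shoots. Fits of the groups compared alone gave 1 in place of 2 (gradient against 22 °C roots) and 2 in place of 4 (organ difference, gradient against 32 °C).

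Same-numbered gradient and 32 °C roots were not paired by the data (correlations of 0.03, -0.09 and -0.19), and for shoots the 2 distinct gradient libraries (0.08 and 0.20) do not settle it. The replicate block was fitted with the lower or the higher number for identical columns. The counts were 2 in place of 4 (32 °C against 22 °C roots), 0 in place of 2 (gradient against 22 °C roots), 0 in place of 1 (gradient against 32 °C shoots), 3 or 6 in place of 6 (root against shoot in the gradient), 3 or 2 in place of 5 (organ difference, 32 °C against 22 °C), 4 or 3 in place of 5 (organ difference, gradient against 22 °C) and 1 in place of 4 (organ difference, gradient against 32 °C). The block shared by the organs gave 2 in place of 4 there and moved no other count by over 1.5 times.

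Leaving out 1 library gave 2 to 4 (32 °C against 22 °C roots), 1 to 3 (gradient against 22 °C roots), 1 to 3 (gradient against 32 °C roots), 8 to 8 in both shoot comparisons with 22 °C, 0 to 1 (gradient against 32 °C shoots), 6 to 6 (root against shoot in the gradient), 4 to 6 (the same at 32 °C), 3 to 4 (the same at 22 °C), and 3 to 6, 4 to 5 and 1 to 4 (organ differences of 32 °C against 22 °C, gradient against 22 °C and gradient against 32 °C). The only distinct 22 °C root library could not be left out of comparisons that need it.

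Counts over all genes moved by over 1.5 times in these cases. Gradient against 22 °C roots had 3558 called genes, against 8804 with identical columns separate, 1093 or 953 under the block, 1677 from the groups alone, and 1976, 1355 and 6582 without the first 32 °C root, the second gradient root and the third gradient root library. Gradient against 32 °C roots had 9324, against 5625, 5803 and 5370 without the first or second 32 °C root or the second gradient root library. Gradient against 32 °C shoots had 85, against 128, 12, 1182, 0 and 130 with a pseudocount of 8, no filter, identical columns separate, the block and the groups alone, and 0 to 22 without any compared library. The organ differences had 6262 (32 °C against 22 °C), 6045 (gradient against 22 °C) and 6265 (gradient against 32 °C) called genes. The first 2 moved to 9946 and 10040 with identical columns separate, and under the block the counts were 4945 or 3872, 4692 or 2670 and 3809 or 4356 with the lower or higher number, of which 3872, 2670 and 3809 differ by over 1.5 times, and the third to 3918 and 2927 without the first and second gradient shoot library. Read depth is unknown.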
